A study of Mus musculus with 102 samples.

Results

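The 6 samples described here are mouse embryonic stem cells (ESCs) without TET activity, taken 8 days after Cre protein transduction or mock treatment and measured by amplicon bisulfite sequencing, 3 replicates of each, of 102 samples in the series. In this assay bisulfite converts unmethylated cytosines, chosen genomic regions are amplified and sequenced, and the methylation level of a CpG is the percentage of its reads in which the cytosine was not converted. Every CpG with a level in all 6 samples was used, which gave 397 of the 405 CpGs listed, in 63 of 65 amplicons. The 8 others are the 4 CpGs of an amplicon on chromosome 1 and the 4 of an amplicon on chromosome 9, which had at most 1 read in mock replicate 1 and at most 37 reads in mock replicate 3.

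All 6 samples are the TET triple knockout (TTKO) line, a clone in which every allele of Tet1, Tet2 and Tet3 carries a frameshift made with CRISPR. It was derived on a C57BL6/J background from ESCs homozygous for Dnmt3a and Dnmt3b alleles whose catalytic exons lie between loxP sites, so the controls carry the floxed alleles and the loss of TET too. The Cre samples received a cell-permeable Cre protein, and the labels give their Dnmt3a/3b as catalytic dead. The mock samples received the buffer in which Cre had been dialysed, and the labels give their Dnmt3a/3b as intact. Excision by Cre was incomplete per the study's methods, so a Cre sample is a mixture in which some alleles remain. Comparisons were also made with non-transduced TTKO cells at day 0, with TTKO cells at days 4 and 10, and with the parental floxed line with TET proteins (here called wild type) at day 8, with 3 replicates in each group. The tables hold methylation and no transcripts, so the ESC identity of the cells and the loss of Tet and Dnmt3 were not checked in these samples. The replicates are called biological by the study, and its labels name no library or sequencing batch.

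DNMT3A and DNMT3B are the de novo methyltransferases, which methylate CpGs irrespective of the other strand, whereas DNMT1 copies methylation onto the new strand at replication. TET enzymes oxidise methylated cytosine, which leads to its removal. With TET and DNMT3 both gone, methylation is left to maintenance at replication, and the comparison of Cre with mock asks how far each region had lost methylation by day 8. Low-methylated regions (LMRs) are distal regulatory elements with intermediate methylation that are occupied by transcription factors, such as CTCF, an insulator protein, and REST, a repressor of neuronal genes. Unmethylated regions (UMRs) are mostly CpG island promoters, and fully methylated regions (FMRs) make up most of the remaining genome.

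The reference sequences of 7 amplicons on which the results turn are given here from the mm9 assembly (NCBIM37), on the plus strand and with 10 bases beyond the outermost CpG. They are shown because they hold the CpGs with the largest differences, a binding motif beside CpGs that differ in methylation, or a CpG that was higher after Cre. Capitals mark the CpGs that were measured, and a cg in lower case was not among them.
Cacng7 amplicon, chr7:3349930-3350200: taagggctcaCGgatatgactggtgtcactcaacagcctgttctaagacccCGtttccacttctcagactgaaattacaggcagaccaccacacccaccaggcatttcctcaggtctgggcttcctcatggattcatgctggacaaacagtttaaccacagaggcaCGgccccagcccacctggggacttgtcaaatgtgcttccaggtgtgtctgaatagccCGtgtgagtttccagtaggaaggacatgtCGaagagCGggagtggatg
4931440P22Rik amplicon, chr3:65259451-65259592: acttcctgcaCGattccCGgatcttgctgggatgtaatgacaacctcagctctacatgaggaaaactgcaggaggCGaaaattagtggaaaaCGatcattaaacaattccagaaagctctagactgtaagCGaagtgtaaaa
Akap6 amplicon, chr12:54133614-54133849: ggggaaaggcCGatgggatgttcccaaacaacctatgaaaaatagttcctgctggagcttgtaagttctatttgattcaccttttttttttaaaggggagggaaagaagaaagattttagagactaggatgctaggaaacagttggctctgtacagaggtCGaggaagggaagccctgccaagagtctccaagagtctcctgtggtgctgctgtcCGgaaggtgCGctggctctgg
Calhm2 amplicon, chr19:47210058-47210254: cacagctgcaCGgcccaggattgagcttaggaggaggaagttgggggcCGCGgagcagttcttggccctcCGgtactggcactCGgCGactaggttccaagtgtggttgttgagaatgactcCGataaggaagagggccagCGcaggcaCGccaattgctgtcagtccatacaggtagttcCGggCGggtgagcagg
Tssc1 amplicon, chr12:29516075-29516221: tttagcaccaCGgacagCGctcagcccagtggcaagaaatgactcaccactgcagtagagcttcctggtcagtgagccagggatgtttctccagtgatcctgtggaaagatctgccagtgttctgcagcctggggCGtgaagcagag
Sf3b5 amplicon, chr10:12738433-12738487: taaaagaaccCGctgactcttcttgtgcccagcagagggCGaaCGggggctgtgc
Hdac2 amplicon, chr10:36693866-36694028: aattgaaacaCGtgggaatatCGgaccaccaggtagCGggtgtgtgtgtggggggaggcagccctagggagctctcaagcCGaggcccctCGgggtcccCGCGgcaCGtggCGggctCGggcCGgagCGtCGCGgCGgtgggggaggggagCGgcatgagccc

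Amplicons are called by the nearest protein-coding gene of the GENCODE M1 annotation, which says where they lie and nothing of which gene they control. The Cacng7 (a subunit of the AMPA receptor and calcium channel complexes), Akap6 (an anchoring protein of protein kinase A) and Tssc1 amplicons lie in introns, and that of Calhm2 (a member of the calcium homeostasis modulator family) lies in a coding exon. The amplicons of 4931440P22Rik, Sf3b5 (a splicing factor subunit) and Hdac2 (a histone deacetylase) are intergenic, with a distance of at least 51598, 9455 and 333 bases from these genes. The total number of reads on CpGs ranged from 2521581 to 4134203 per sample and the median coverage of a CpG from 4509 to 6188 reads, with 140 reads at the least. The reads come from PCR and carry no molecular identifiers, and replicates differed by far more than read counts alone would give, so every error below is the spread between replicates.

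Over the 397 CpGs, mean methylation was 36.7, 36.9 and 36.8% in the 3 Cre replicates and 42.3, 42.3 and 44.3% in the 3 mock replicates. The groups did not overlap. The means were 36.8% ± 0.0976 after Cre and 43.0% ± 1.16 in the mock (SD, n = 3), a difference of -6.19 percentage points (p = 0.1 in a two-sided exact permutation test). This is the smallest p that 3 replicates against 3 can give, here and in every such test below. Mock replicate 3 was the highest of the 6, and the mock replicates were more spread than those after Cre. Of the CpGs, 305 had a lower mean after Cre, and in 144 (36.3% of those tested) all 3 Cre replicates lay below all 3 mock replicates. The opposite held for 20 CpGs (5.04%).

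The means are given here by the region classes of the deposited list (plot of the class means per sample). ESC-specific LMRs were measured at 64 CpGs in 6 amplicons. Their mean was 39.8, 41.2 and 40.0% after Cre and 50.2, 51.8 and 55.0% in the mock, a difference of -11.99 percentage points. At 23 CpGs of the CTCF class the means were 23.8, 22.4 and 25.9% after Cre and 32.9, 32.7 and 38.6% in the mock, a difference of -10.7 percentage points. At 98 CpGs of the REST class they were 13.8, 14.5 and 14.4% after Cre and 18.7, 18.9 and 21.2% in the mock. In these 3 classes every Cre replicate was below every mock replicate.

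The other constitutive LMRs, of which 51 CpGs were tested, had 58.0, 58.3 and 57.3% after Cre and 67.7, 66.5 and 68.9% in the mock. The 22 CpGs of FMRs had 82.2, 80.8 and 81.6% after Cre and 87.5, 89.0 and 87.9% in the mock. LMRs specific to neuronal progenitors (NPs), which are methylated in ESCs, had 88.4, 88.2 and 88.1% against 92.2, 92.5 and 92.5% over 39 CpGs. The groups were apart in these 3 classes as well, with differences of -9.84, -6.63 and -4.20 percentage points.

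In 2 classes the replicates overlapped. The 82 CpGs of UMRs had 2.82, 2.97 and 3.19% after Cre and 3.76, 2.99 and 4.13% in the mock (p = 0.2, exact permutation test). The only amplicon labelled metIsland, with 12 CpGs on chromosome X in a coding exon of AU022751, had 97.0, 92.6 and 93.7% after Cre and 97.0, 93.5 and 97.0% in the mock (p = 0.7, exact permutation test). A UMR labelled as methylated, 436 bases or more from Tuba3a (an alpha-tubulin gene), had 84.2, 85.9 and 86.9% over its 6 CpGs after Cre and 91.3, 92.8 and 93.0% in the mock, with no overlap. Adjusted over the 9 classes, p was 0.129 for each of the 7 classes whose replicates did not overlap.

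**Figure D1:**
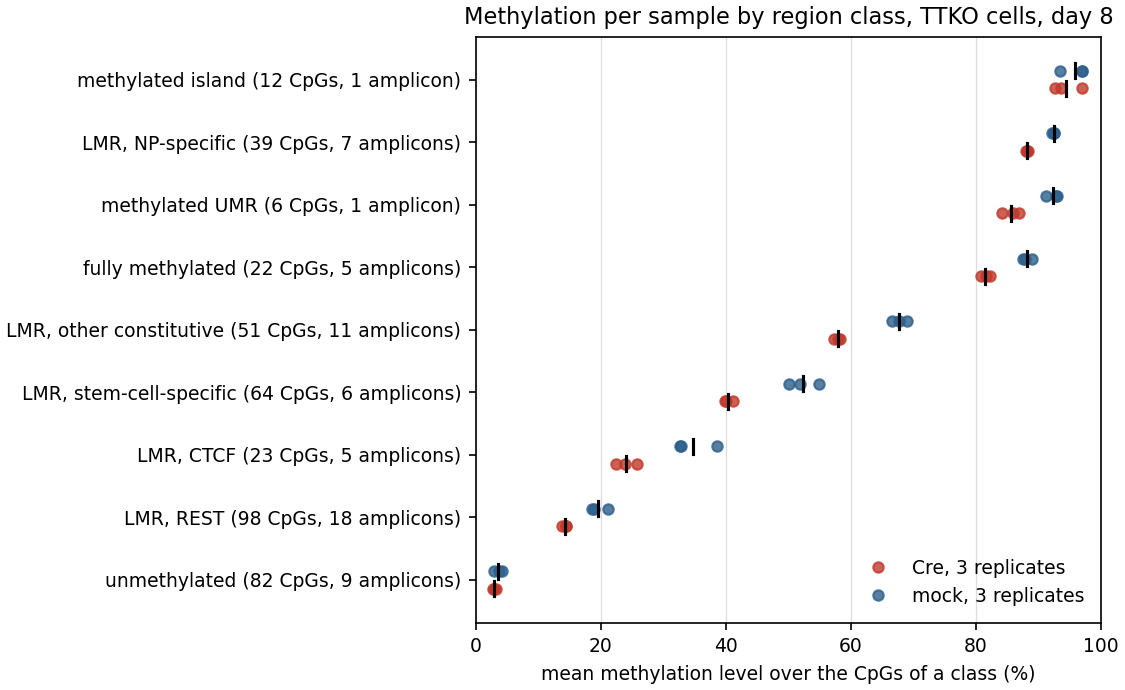
Mean methylation level in percent (horizontal axis) over the CpGs of each region class, with a point for each of the 3 Cre (red) and 3 mock (blue) replicates and a black bar at the mean. Red and blue points were apart in 7 of the 9 classes and overlapped in unmethylated regions and in the methylated island.

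Expressed as a share of the mock level at CpGs with at least 10% methylation in the mock, the order of the classes was another. The median loss was 42.1% over 21 of the 23 CpGs of the CTCF class, 34.1% over 46 of the 98 of the REST class and 30.6% over 63 of the 64 of the ESC-specific LMRs. It was 12.3% at the other constitutive LMRs, 7.43% at FMRs, 7.28% in the methylated UMR, 3.42% at NP-specific LMRs and 0.558% in the methylated island. Even the sign of the last depended on which replicates were used, as given in the closing section. The other constitutive LMRs had a wide range, from a gain of 28.0% to a loss of 63.5%. At UMRs only 5 of 82 CpGs reached 10% in the mock, with a median loss of 42.3%, and since they were chosen for a high mock they give UMRs no place in the order. Over all 82 the median log2 odds ratio was -0.00997, and all Cre replicates lay below all mock replicates at 8 CpGs and above them at 11. The REST class too took its place from the part of its CpGs that passed this limit. With no limit on the mock, the median log2 odds ratio was -1.13 in the CTCF class and -1.08 at ESC-specific LMRs. It was -1.07 in the methylated UMR, -0.788 in the methylated island, -0.786 at FMRs and -0.760 at the other constitutive LMRs. At NP-specific LMRs it was -0.687, and in the REST class -0.651. These are descriptions over CpGs, which share reads and amplicons and are not replicates.

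Counts were summed over the CpGs of each amplicon and tested with a quasi-binomial logistic model, in which an odds ratio compares the odds of methylation after Cre with those in the mock. Methylation was lower after Cre in 22 of 63 amplicons (34.9%) and higher in 0 (0%) at an adjusted p under 0.05, with 33 lower and 0 higher at an unadjusted p under 0.05. A test on log2 odds with every sample weighted equally called 27 lower and 0 higher. In 37 amplicons (58.7%) the 3 Cre means lay below all 3 mock means. The 22 that fell comprised 6 of 18 amplicons of the REST class, 4 of 6 ESC-specific LMRs, 3 of 5 of the CTCF class, 5 of 11 other constitutive LMRs, 2 of 5 FMRs, 1 of 7 NP-specific LMRs, the methylated UMR and 0 of 9 UMRs (plot of the odds ratios per amplicon). They were 13 of 34 intergenic amplicons, 8 of 21 in introns and 1 of 8 others, so that the shares of the first pair lay near that of all amplicons. Their relative loss ranged from 7.21 to 62.1%, with a median of 33.9%.

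**Figure D2:**
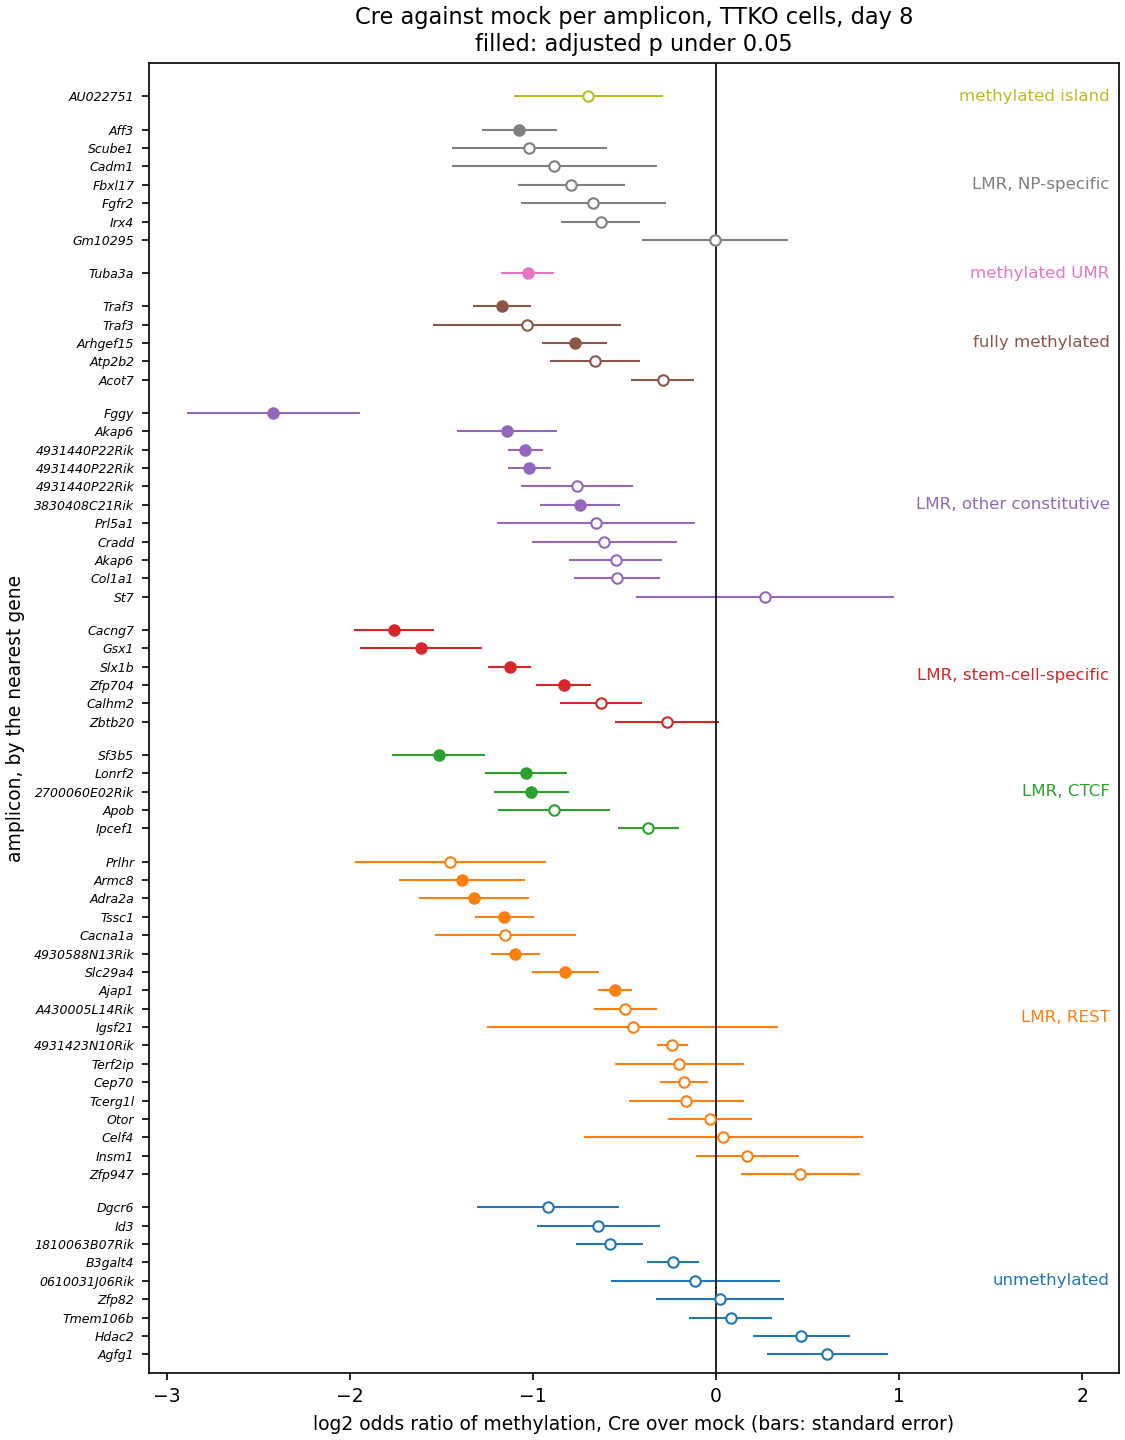
Log2 odds ratio of methylation, Cre over mock (horizontal axis, bars are the standard error), for each of the 63 amplicons, named by the nearest gene and grouped by region class, with filled points for an adjusted p under 0.05. The 22 filled points lie left of 0 and none belongs to the unmethylated regions.

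Among ESC-specific LMRs the Cacng7 amplicon fell at all 6 of its CpGs. Its level was 20.1, 25.2 and 22.7% after Cre and 52.9, 41.9 and 50.4% in the mock, a loss of 53.2% of the mock level (log2 odds ratio -1.76, standard error 0.22, adjusted p = 0.00193). The difference was -25.7 percentage points from the mock and -12.00 from day 0, when the mean was 34.7%. The amplicon 29173 bases or more from Gsx1, a homeobox gene of the developing nervous system, had 14.3, 13.1 and 15.1% after Cre. In the mock it had 37.1, 21.2 and 37.5%, so that its loss was 55.6%, the largest of the class (log2 odds ratio -1.61, standard error 0.33, adjusted p = 0.0110). An amplicon with 20 CpGs over coding exon and intron of Slx1b, a subunit of a DNA endonuclease, had 12.6, 14.4 and 13.1% after Cre and 21.6, 25.7 and 27.1% in the mock. There 16 of the 20 CpGs had no overlap between the groups. The Zfp704 amplicon (a zinc finger gene) also fell, from 64.9% ± 5.19 to 47.5% ± 2.99 (SD, n = 3).

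In the same class a coding exon of Zbtb20, a transcription factor gene, showed the smallest loss. Its 13 CpGs had 94.8, 94.2 and 95.7% after Cre and 97.4, 94.9 and 95.0% in the mock, and the groups overlapped (log2 odds ratio -0.27, standard error 0.28, adjusted p = 0.461). A CpG of this amplicon had 96.0, 96.6 and 97.1% after Cre against 93.6, 94.3 and 95.6% in the mock. It was not called (adjusted p = 0.171).

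In the CTCF class the Sf3b5 amplicon had 6.77, 7.96 and 8.40% after Cre and 16.9, 18.3 and 22.3% in the mock, a loss of 59.8% and the largest of the class (log2 odds ratio -1.52, standard error 0.25, adjusted p = 0.00536). The amplicons near 2700060E02Rik and Lonrf2 fell too, from 47.3% ± 5.12 to 31.5% ± 4.05 and from 24.97% ± 3.14 to 13.7% ± 1.11 (SD, n = 3). The Ipcef1 amplicon showed the smallest loss, with 34.6, 33.9 and 36.5% after Cre and 41.5, 34.5 and 45.7% in the mock (adjusted p = 0.114). Its lowest mock replicate lay below the highest Cre replicate.

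In the REST class the largest loss among amplicons with at least 3 CpGs and 10% in the mock was 55.0%, in an intergenic amplicon 126868 bases or more from Adra2a, an adrenergic receptor gene. It had 4.51, 5.92 and 5.06% after Cre and 8.27, 13.5 and 12.7% in the mock (log2 odds ratio -1.32, standard error 0.30, adjusted p = 0.0142). The amplicon nearest to 4930588N13Rik had 33.4, 38.7 and 36.6% after Cre and 54.7, 52.6 and 58.2% in the mock, and all 6 of its CpGs were apart. Amplicons at Armc8, Tssc1, Slc29a4 (a monoamine transporter gene) and Ajap1 fell as well, with losses of 53.4, 47.5, 38.9 and 21.1%. The Otor amplicon, at 13.9, 17.5 and 11.0% after Cre and 16.5, 13.1 and 13.3% in the mock, showed the smallest loss by the same limits, 0.868% (adjusted p = 0.935). The Zfp947 amplicon had the largest positive odds ratio of the class, with 5.37, 5.91 and 5.40% after Cre and 2.64, 5.77 and 4.23% in the mock (log2 odds ratio 0.46, standard error 0.33, adjusted p = 0.265).

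Among the other constitutive LMRs, 2 of the 3 amplicons nearest to 4931440P22Rik on chromosome 3 fell. The one whose sequence is given above had 58.5, 57.2 and 59.7% after Cre and 73.9, 75.5 and 73.6% in the mock (log2 odds ratio -1.02, standard error 0.12, adjusted p = 0.00193). The other, at chr3:65259965-65260050, had 36.7, 38.6 and 38.1% after Cre and 55.2, 53.5 and 57.6% in the mock, and its loss of 31.9% was the largest of the class among amplicons with at least 3 CpGs (log2 odds ratio -1.04, standard error 0.10, adjusted p = 0.00185). The lowest odds ratio of all 63 amplicons belonged to the amplicon beside Fggy, a carbohydrate kinase gene, with only 2 CpGs. Its coverage ran from 247 to 26413 reads per CpG and sample, and samples with more reads weigh more in the odds ratio. Its levels were 8.49, 6.15 and 16.0% after Cre and 41.9, 29.8 and 9.11% in the mock, so that mock replicate 3 lay below Cre replicate 3 (log2 odds ratio -2.42, standard error 0.47, adjusted p = 0.00954). It was the only called amplicon whose groups overlapped. The replicates of the St7 amplicon were far apart, with 62.8, 53.7 and 43.8% after Cre and 30.2, 63.2 and 43.9% in the mock (adjusted p = 0.796).

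Among FMRs, the called amplicons lie in introns of Traf3 (an adaptor of tumour necrosis factor receptors) and Arhgef15. The Traf3 amplicon with 5 CpGs had 83.9, 81.7 and 86.2% after Cre and 91.6, 91.8 and 93.9% in the mock (log2 odds ratio -1.17, standard error 0.16, adjusted p = 0.00241). The Atp2b2 amplicon showed the largest relative loss of the class, 10.6%, and that of Acot7 the smallest, 3.87%, and neither was called (adjusted p = 0.0687 and 0.195). In NP-specific LMRs an intron of Aff3 was called, at 87.0, 85.0 and 83.8% after Cre and 93.6, 93.4 and 90.4% in the mock (adjusted p = 0.00916). The Cadm1 amplicon showed the largest relative loss of that class, 17.4%, but had only 244 to 619 reads per CpG, and Cre replicate 3 at 68.0% lay above mock replicate 3 at 67.5%. The amplicon nearest to Gm10295 showed the smallest, 0.0628%, with 94.0, 93.6 and 92.5% after Cre and 90.3, 92.5 and 97.3% in the mock.

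UMRs were near the lower end of the scale in all 6 samples. With no minimum set on the mock level, since no UMR amplicon reached 10%, their largest relative loss was 44.0% near Dgcr6, with 4.46, 5.89 and 4.16% after Cre and 11.98, 6.47 and 7.47% in the mock (adjusted p = 0.0960). The most positive odds ratio of all amplicons was in an intron of Agfg1, with 0.926, 1.25 and 1.26% after Cre and 0.678, 0.843 and 0.955% in the mock (log2 odds ratio 0.61, standard error 0.33, adjusted p = 0.173). At these levels unconverted cytosines count as methylated, and the conversion of the samples was not analysed here.

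Tested CpG by CpG, 70 of 397 (17.6%) were lower after Cre and 2 (0.504%) were higher at an adjusted p under 0.05, with 123 lower and 7 higher at an unadjusted p under 0.05 (plot of each CpG after Cre and in the mock). The ESC-specific LMRs held 26 of the lower CpGs, 40.6% of those tested in the class. Of these, 11 lay in the Slx1b amplicon and 6 in that of Cacng7. The REST class held 17 (17.3%) and the other constitutive LMRs 10 (19.6%), shares near the 17.6% of all CpGs. In the CTCF class 7 of 23 CpGs (30.4%) fell. These counts rested on the replicates and the test. Without Cre replicate 1, 2 or 3 the count of lower CpGs was 1, 5 or 8, and without mock replicate 3 it was 46. A test on log2 odds with equal weights called 1 lower and 3 higher, although all 70 were negative in it and 67 had an unadjusted p under 0.05. The amplicon is therefore the unit used above.

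**Figure D3:**
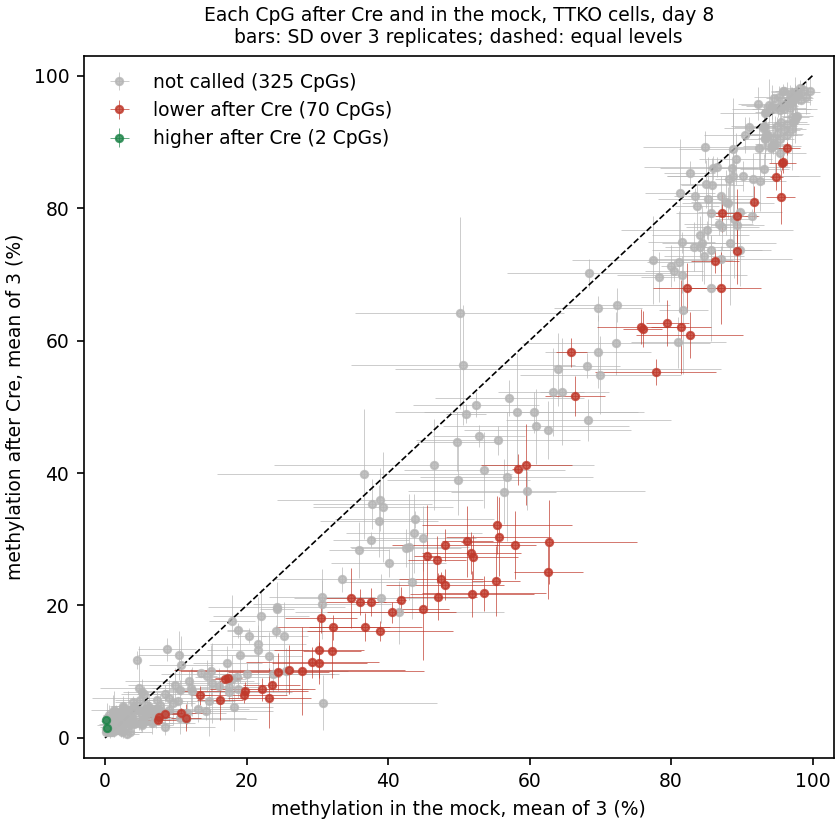
Methylation level in percent in the mock (horizontal axis) and after Cre (vertical axis) for 397 CpGs, as means of 3 replicates with bars of 1 SD, in red for the 70 CpGs called lower, in green for the 2 called higher and in grey for the rest. Most points lie below the dashed line of equal levels, farthest from it between 30 and 70% in the mock.

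The CpG with the largest difference lay in the sequence given for the 4931440P22Rik amplicon, at position 65259526 of chromosome 3. It had 21.7, 23.9 and 29.5% after Cre and 68.3, 60.7 and 59.0% in the mock, on 2092 to 6592 reads (log2 odds ratio -2.31, standard error 0.30, adjusted p = 0.0118). Of the 5 CpGs of this amplicon 2 were called lower. The other was the rightmost, with 62.1% ± 7.10 after Cre and 81.5% ± 4.23 in the mock, and the CpG at position 65259468 had 74.2% ± 3.69 and 83.3% ± 1.86 with no overlap but was not called (SD, n = 3). The CpG 17 bases to the right had 45.0% ± 2.19 after Cre and 55.6% ± 11.6 in the mock, and that at the left end had 86.1% ± 1.09 and 88.7% ± 3.62 (SD, n = 3), and neither was called.

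A CpG of the Akap6 amplicon, at position 54133774 of chromosome 12, had 18.9, 22.6 and 24.1% after Cre and 54.6, 61.7 and 44.4% in the mock (log2 odds ratio -2.03, standard error 0.44, adjusted p = 0.0286). Its mean at day 0, 29.9%, was far below the mock mean of 53.6% and nearer to the mean of 21.8% after Cre. The rightmost CpG of the Cacng7 sequence, at position 3350189 of chromosome 7, had 26.1, 37.0 and 25.7% after Cre and 65.8, 49.1 and 73.4% in the mock (log2 odds ratio -1.96, standard error 0.40, adjusted p = 0.0251). The last CpG of the Calhm2 sequence, at position 47210243 of chromosome 19, had 25.5, 21.1 and 18.7% after Cre and 47.8, 61.9 and 45.8% in the mock, on 25345 reads or more (log2 odds ratio -1.93, standard error 0.28, adjusted p = 0.0131). At all 3 CpGs the groups were apart. Among called CpGs, taking 1 per amplicon, those near 2700060E02Rik, 4930588N13Rik and Zfp704 complete the 8 largest differences with those above and that of Tssc1 below, with losses of 56.9, 45.4 and 47.4% of the mock level.

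Some highly methylated CpGs had no lower mean after Cre. Of the CpGs with at least 50% in the mock, 6 from different amplicons are named here for the smallest relative loss, and none was called. The lowest was in the St7 amplicon, with 73.3, 71.8 and 47.4% after Cre and 36.2, 65.7 and 48.5% in the mock. Near Gm10295 a CpG had 89.8, 91.4 and 86.5% after Cre and 82.1, 77.7 and 94.4% in the mock, and in AU022751 1 had 98.5, 95.1 and 93.7% against 91.7, 89.8 and 95.3%. CpGs in Acot7, Calhm2 and Zbtb20 had means of 85.3, 70.2 and 96.6% after Cre and 82.6, 68.5 and 94.5% in the mock. Only the CpG in Zbtb20 had groups that did not overlap.

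The 2 CpGs called higher lie in UMRs, and both calls were lost when any single Cre replicate was left out, and 1 CpG was called higher when any single mock replicate was. At a mean level of at least 5%, or with a difference of at least 5 percentage points also required, 0 CpGs were called higher. That at position 36693956 of chromosome 10, in the Hdac2 sequence, had 2.38, 3.65 and 2.24% after Cre and 0.101, 0.291 and 0.107% in the mock (log2 odds ratio 4.07, standard error 0.97, adjusted p = 0.0377). That at position 135690875 of chromosome 4, 8537 bases from Id3 (an inhibitor of helix-loop-helix factors), had 1.02, 1.54 and 1.88% after Cre and 0.139, 0.392 and 0.199% in the mock (adjusted p = 0.0332). At day 0 the means of these CpGs were 2.07 and 2.71%, above the mock at day 8 as well.

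The difference is given here by the level in the mock. Between 30 and 50% in the mock, 42 CpGs had a median difference of -15.2 percentage points and 45.2% of them were called lower. Between 50 and 70% the median was -14.3 percentage points over 38 CpGs, and between 70 and 90% it was -9.19 over 59. At 90% or more, 71 CpGs had a median of -2.29 percentage points and 8.45% were called. The median relative loss fell along the same order, from 50.8% at 10 to 30% in the mock to 39.5, 23.6, 11.3 and 2.31%. On the log2 odds scale the medians were closer together, at -1.21, -1.06, -0.86, -0.81 and -0.70. Between 5 and 10% in the mock, 36 CpGs had a median difference of -2.87 percentage points and a median log2 odds ratio of -0.80, and 3 were called lower. Under 5%, where 96 CpGs lay, both medians were positive, at 0.526 percentage points and 0.47, with 0 CpGs called lower and 2 higher. The mock levels enter both the bins and the difference.

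The bases beside a CpG gave no clear order. By the base before the CpG, the median relative loss was 19.1% for A (66 CpGs), 15.4% for G (70), 12.5% for T (50) and 10.5% for C (79). The median mock levels of these groups ran from 55.6% for A to 79.5% for C, and the quartiles of relative loss overlapped between all 4. By the base after it, the medians lay between 11.9% for T and 17.8% for A. CpGs with at most 1 other CpG within 50 bases to each side had a median loss of 17.0%, those with 2 to 3 had 11.9% and those with 4 to 6 had 6.05%, at median mock levels of 63.0, 81.1 and 80.9%. The 28 CpGs with 7 or more neighbours, in only 3 amplicons, had 29.1% at a mock level of 39.7%.

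Binding motifs were searched on both strands of the 88 designed regions, as a core of the REST motif, which 11.4% of the regions hold, and a core of the CTCF motif, which 7.95% hold. The REST core stood in 10 of the 28 regions of the REST class and in 0 of the others, the CTCF core in 3 of 6 regions of the CTCF class and in 4 others. The Tssc1 sequence holds agcaccaCGgacag near its left end. The measured CpG in these letters had 3.86% ± 0.768 after Cre and 6.20% ± 2.50 in the mock, and that next to them 4.05% ± 0.543 and 6.36% ± 4.06 (SD, n = 3). The CpG 119 bases away in the same amplicon fell to 26.4, 35.1 and 25.9% from 57.6, 55.3 and 61.2% (log2 odds ratio -1.81, standard error 0.18, adjusted p = 0.00689). In amplicons of the REST class with a match, the 18 CpGs up to 50 bases from it had a median of 6.83% in the mock and 4.15% after Cre, and 10 CpGs farther away had 22.6 and 8.74%. Most of these 10 came from the Slc29a4 and Ajap1 amplicons. In that of Ajap1 the CpGs 10 and 24 bases from the match had 79.5 and 82.3% in the mock, and that 119 bases away had 0.694%. In that of Adra2a the CpG 31 bases away had 19.7% and that 105 bases away 7.39%. In amplicons of the CTCF class the 6 CpGs up to 50 bases from a match had 16.9 and 6.72%, and 8 farther away 50.2 and 25.8%. The CpGs came from 3 amplicons in unequal shares, all but 1 of the 8 from that near 2700060E02Rik, and in the amplicon near Apob the CpG 100 bases from the match had 11.6% in the mock against 30.5% at the one 30 bases from it. Over the 3 CpGs of the Sf3b5 amplicon, which holds the CTCF core as ccagcagagggC, ending in the C of a measured CpG, the loss lay between 56.3 and 64.6%.

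Within amplicons the loss varied widely between CpGs (plot of methylation along 6 amplicons). The widest ranges were in the amplicons nearest to 4931423N10Rik, of the REST class, and Ipcef1, of the CTCF class. In the former, the CpGs with at least 10% in the mock ran from a gain of 19.4%, at a CpG with 12.5% ± 3.67 after Cre and 10.5% ± 5.85 in the mock, to a loss of 52.1%, at a CpG with 6.47% ± 1.42 and 13.5% ± 1.30 (SD, n = 3). In the Ipcef1 amplicon a CpG at 86.1% ± 1.76 after Cre and 85.9% ± 7.52 in the mock stood beside others at 45.6% ± 1.63 and 52.8% ± 6.52. The rightmost CpG of that amplicon had 3.72% ± 0.780 after Cre and 10.7% ± 3.64 in the mock, a loss of 65.1%. In the Calhm2 amplicon the 11 CpGs ranged from a gain of 2.49% to a loss of 58.0%, and CpGs a few bases apart differed, as at the 2 rightmost capitals of its sequence, with losses of 18.9 and 58.0%. In the Cacng7 amplicon by contrast the losses of all 6 CpGs lay between 42.6 and 62.6%.

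**Figure D4:**
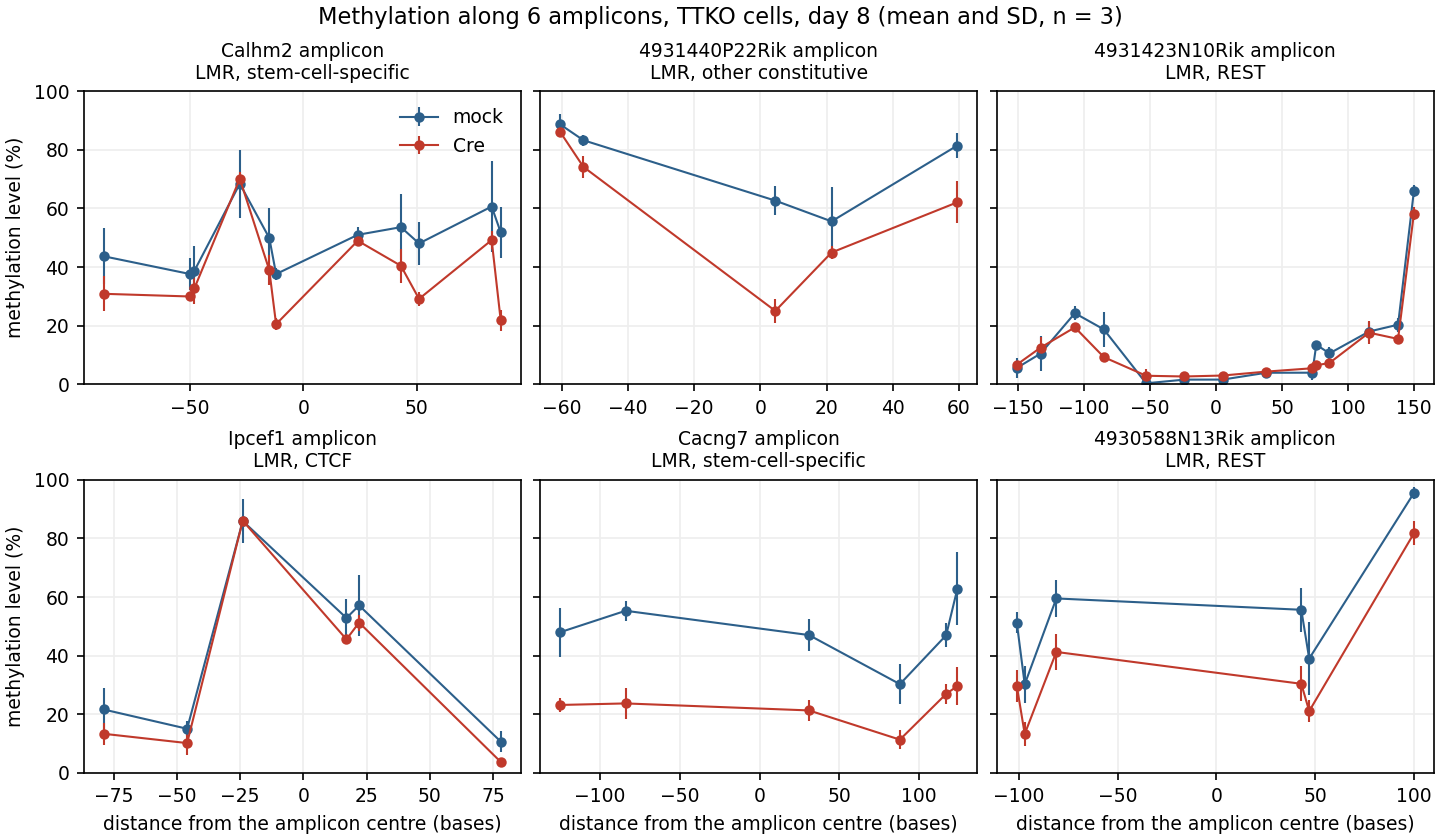
Methylation level in percent (vertical axis) at the CpGs of 6 amplicons by distance from the amplicon centre in bases (horizontal axis), as means with bars of 1 SD over 3 mock (blue) and 3 Cre (red) replicates. The lines run apart along the Cacng7 and 4930588N13Rik amplicons and meet at some CpGs of the Calhm2, 4931423N10Rik and Ipcef1 amplicons.

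The mock cells at day 8 were compared with the non-transduced cells at day 0, which had a mean of 42.1% against 43.0% in the mock over the 397 CpGs. At single CpGs 0 were lower and 2 higher in the mock (0% and 0.504%), with 33 lower and 28 higher at an unadjusted p under 0.05, and the test on log2 odds called 7 lower and 0 higher. Without mock replicate 1, 0 CpGs were called in either direction, and without mock replicate 3, 4 were lower and 5 higher. Over amplicons 3 were lower and 3 higher (4.76% each), and 1 lower and 1 higher without mock replicate 2. This comparison uses the same mock samples as that of Cre with mock. The Cacng7 amplicon was higher in the mock than at day 0, when it had 34.9, 35.2 and 33.9% (log2 odds ratio 0.94, standard error 0.20, adjusted p = 0.0371). The Traf3 amplicon, with 87.4, 88.8 and 87.5% at day 0, and that beside Tuba3a, with 88.4, 86.2 and 87.3%, were also higher in the mock. Those lower in the mock were the amplicons at Tcerg1l, Agfg1 and B3galt4. The test on log2 odds called 1 amplicon lower and 0 higher, so that none of the higher calls held in it.

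Set against day 0 in place of the mock, all 22 called amplicons had a lower mean after Cre. So did every amplicon that was not called, except that in an intron of Celf4, and a lower mean does not set the 22 apart. In 19 of the 22 every Cre replicate lay below every day 0 replicate, as in 43 of all 63 amplicons. The exceptions among the 22 were the Akap6, Fggy and Tuba3a amplicons. The Akap6 amplicon had 67.2, 70.3 and 68.3% at day 0, 63.9, 64.5 and 68.0% after Cre and 78.2, 85.4 and 78.6% in the mock. In 8 of the 22 called amplicons, those of Akap6, Cacng7, Tssc1, Slc29a4, 4930588N13Rik, Traf3, Tuba3a and Aff3, all 3 mock replicates stood above all 3 at day 0, as in 9 of all 63. In 19 of the 22 the mock mean was above that at day 0, so that the fall from day 0 was smaller than the difference from the mock. Over all 63 amplicons the log2 odds ratio of mock against day 0 was negative in 42.9%. The 22 were called for a mock above Cre, so amplicons with a high mock are favoured among them by the choice itself. At the Akap6 amplicon the difference was -15.3 percentage points from the mock and -3.14 from day 0, at that of Fggy -16.7 and -7.39, and at that of Tuba3a -6.66 and -1.63. No cells were given Cre in a line without loxP sites among the samples used here, so an effect of the Cre protein itself was not tested.

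The Cre effect at day 8 was tested against that at day 4 and day 10 with an interaction term, each day having its own mock. At 330 CpGs with a level in every TTKO amplicon sample, the difference between Cre and mock at day 8 was 41.0% of that at day 29. This share was 61.5% at ESC-specific LMRs, 53.9% in the REST class and 15.0% at NP-specific LMRs. The last rests on 21 of the 39 CpGs of its class, whose difference at day 8 was -2.12 percentage points against -4.20 over all 39. The share was 27.7% at the other constitutive LMRs, 27.9% at FMRs, 27.1% at UMRs, 20.1% in the methylated island and 34.4% in the methylated UMR. At UMRs and in the island the groups overlapped at day 8. Their differences, -0.513 ± 0.610 and -1.38 ± 3.03 percentage points, were smaller than their SD, so these shares carry little. In the CTCF class, over only 3 CpGs, the share was 73.7%. The difference of -15.3 percentage points at day 29 was smaller there than that of -21.6 at day 17. Over all 330 CpGs the mock mean was 40.9% at day 17 and 37.7% at day 29.

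Over the 330 CpGs, Cre minus mock was -3.58 ± 1.69, -5.79 ± 1.28 and -8.20 ± 0.747 percentage points at days 4, 8 and 10 (SD from both groups). At single CpGs the effect differed between day 8 and day 4 at 1 of 358 CpGs (0.279%), and between day 8 and day 10 at 0 of 385 (0%), where 41 passed an unadjusted p under 0.05 and the test on log2 odds called 4. The median interaction log2 odds ratio was -0.25 against day 4 and 0.53 against day 10, where 30.6% were negative. The CpG that differed from day 4 is that of the Tssc1 amplicon, 119 bases from the REST letters. It had 43.5% ± 4.98 after Cre and 47.7% ± 1.19 in the mock at day 4, and 29.1% ± 5.15 and 58.0% ± 2.95 at day 8 (SD, n = 3, interaction log2 odds ratio -1.53, standard error 0.26, adjusted p = 0.0269). The call was lost without Cre replicate 1 or 3, without mock replicate 1 or 3 and in the test on log2 odds. Its mock mean was higher at day 8 than at day 4, and higher than at day 0 (42.6% ± 1.31, adjusted p = 0.0458), a call that was lost without mock replicate 1 and in the test on log2 odds. Over amplicons, 0 of 54 (0%) differed from day 4, with 7 at an unadjusted p under 0.05, and 1 of 60 (1.67%) from day 10. The latter was the Zfp947 amplicon, whose mean at day 10 was 3.40% after Cre and 7.88% in the mock, against 5.56% and 4.21% at day 8 (log2 odds ratio 1.75, standard error 0.34, adjusted p = 0.0257). When any single Cre replicate was left out, 0 amplicons differed from day 10.

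The line with TET proteins had its own Cre and mock samples at day 8. At 350 CpGs with a level in all 12 samples, TTKO cells had 38.6% ± 0.0322 after Cre and 45.1% ± 1.08 in the mock, and wild-type cells 30.1% ± 0.632 and 40.3% ± 1.47 (SD, n = 3). The effects thus differed by 3.67 ± 1.93 percentage points, of which the other constitutive LMRs showed the most, 9.99 ± 2.17 (SD from the 4 groups). These class differences were not tested. There TTKO cells differed by -9.84 percentage points and the wild type by -19.8, with a mock level of 67.7% against 43.2%. At the CTCF class the effects were -12.5 and -11.4 percentage points over 17 CpGs, and their difference of -1.09 was smaller than its SD of 5.08.

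The interaction of line and Cre passed the threshold at 1 of 350 CpGs (0.286%), with 42 at an unadjusted p under 0.05, and at 2 of 58 amplicons (3.45%), with a weaker effect in TTKO cells in each case (plot of the differences in both lines). The Akap6 amplicon at chr12:54133872-54134056, beside that whose sequence is given, had 60.5, 67.6 and 60.0% after Cre and 63.3, 69.1 and 74.7% in the mock in TTKO cells. In wild-type cells it had 5.41, 3.01 and 4.14% after Cre and 25.6, 24.9 and 24.0% in the mock (interaction log2 odds ratio 2.37, standard error 0.45, adjusted p = 0.00945). The called CpG is the leftmost of this amplicon, with 5.10% ± 0.990 after Cre and 31.6% ± 1.35 in the mock in wild-type cells (SD, n = 3). This call was lost when any single Cre replicate or mock replicate 2 was left out, and with at least 1000 reads in each sample. The Ajap1 amplicon of the REST class had 32.4, 31.9 and 33.5% after Cre and 39.9, 41.6 and 42.5% in the mock in TTKO cells, and 15.1, 15.3 and 17.1% and 32.7, 31.9 and 31.5% in wild-type cells (interaction log2 odds ratio 0.78, standard error 0.13, adjusted p = 0.00494).

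**Figure D5:**
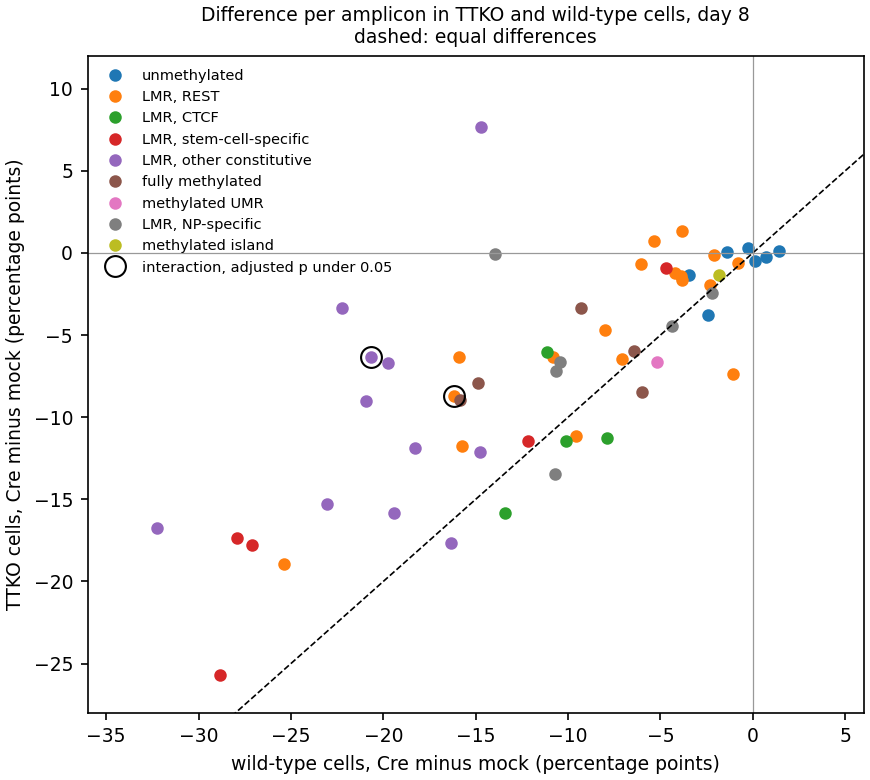
Difference in methylation between Cre and mock at day 8 in percentage points per amplicon, in wild-type cells (horizontal axis) and TTKO cells (vertical axis), coloured by region class, with a black ring for an adjusted p under 0.05 of the interaction. Most points lie above the dashed line of equal differences, and 2 amplicons are ringed.

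The same TTKO line was measured at day 0 and at day 8 after Cre by SureSelect capture, with 3 replicates joined in 1 column per time point and no mock, so no spread or test can be given. At 256 CpGs in 42 amplicons present in both assays, the mean fell from 31.2 to 25.2% in the amplicons and from 27.0 to 21.9% in the capture, while the amplicon mock at day 8 had 32.3%. Of the 54 CpGs called lower that the capture covers, 51 were lower at day 8 than at day 0 there, with a median change of -7.75 percentage points, against 211 (82.4%) and -3.45 for all shared CpGs. Changes from day 0 correlated across these CpGs with r = 0.770, where CpGs of an amplicon share reads and are not independent. For the 4 shared CpGs of the Gsx1 amplicon the capture had 23.7% at day 0 and 11.9% at day 8, and for the 20 of the Slx1b amplicon 17.8 and 10.8%. The Fggy amplicon, whose mock replicates were far apart, had 9.15 and 10.2%. The median depth of the capture at day 8 was 199.5 reads per CpG, far below that of the amplicons.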

How the data were processed

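Amplicon bisulfite reads were made and processed by the authors: MiSeq paired-end reads were aligned to mm9 with Rbowtie in QuasR, and levels were called with AmpliconBiSeq. Versions are not given in the sources used here. The deposited table gives for each CpG the raw count of covering reads and the methylation level as a fraction of them, where the authors set levels under 100 reads to missing. Capture data were deposited as a read count and a percent per CpG, with replicates joined.

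Methylated and unmethylated reads were rebuilt as level times coverage. Each CpG, and the counts summed over each amplicon, were fitted in R 4.3.3 by quasi-binomial logistic regression, with 0.5 added to each count, dispersion moderated with limma 3.58.1 and held at 1 or more, and two-sided p adjusted by Benjamini-Hochberg over all features (threshold 0.05). Interactions and the mock against day 0 summed over amplicons were added after seeing the data. Class means were compared with exact permutation tests. The depth was at least 140 reads per CpG, and the reads are not independent molecules, so only the spread between replicates was used as error. Relative loss was taken at a mock mean of at least 10%, except over amplicons of UMRs, which had no minimum.

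Named CpGs are, 1 per amplicon, the 8 lower CpGs with the largest difference, the 6 with the smallest relative loss at 50% or more in the mock, and those called higher. Named amplicons have the largest or smallest relative loss of a class, the widest range among their CpGs or the most extreme odds ratios, and other called amplicons were named after their values were seen. Members, lists and rules were chosen with earlier results of these data known. Groups were taken from the sample labels. The scripts were tested on simulated data. Alternatives covered the replicate block, each replicate left out, coverage, low levels, the added count, the dispersion and limma on log2 odds.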

Additional observations from a re-analysis of the deposited data

Results flagged for a closer look

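In all, 5 interactions passed the threshold and are given here as values. The Tssc1 CpG at position 29516210 of chromosome 12 had a more negative Cre effect at day 8 than at day 4 (log2 odds ratio -1.53, standard error 0.26, adjusted p = 0.0269). The Zfp947 amplicon had a more positive effect at day 8 than at day 10 (log2 odds ratio 1.75, standard error 0.34, adjusted p = 0.0257), and its mock mean at day 8, 4.21%, was below those at day 0, day 4 and day 10, which were 8.42, 10.1 and 7.88%. Between TTKO and wild-type cells at day 8, the effect was weaker in TTKO cells at the Ajap1 amplicon (log2 odds ratio 0.78, standard error 0.13, adjusted p = 0.00494). It was also weaker at the Akap6 amplicon at chr12:54133872-54134056 (log2 odds ratio 2.37, standard error 0.45, adjusted p = 0.00945) and at its leftmost CpG, at position 54133872 (log2 odds ratio 2.38, standard error 0.41, adjusted p = 0.0313). The calls of the Tssc1 CpG, the Zfp947 amplicon and the Akap6 CpG were lost when any single Cre replicate of day 8 was left out, except that of the Tssc1 CpG, lost without replicate 1 or 3.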

How the results depend on the processing

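Of 100 alternatives for the mean differences, 96 moved them by less than 1 SD, among them all 60 without a replicate. The exceptions moved in size only: FMRs to -8.14 percentage points, and NP-specific LMRs to -2.12, where every TTKO sample had to have a level, and NP-specific LMRs to -5.47 with each amplicon counted equally and to -3.23 with at least 1000 reads. The median relative loss over all CpGs, 15.3%, was 11.6% at a mock mean of at least 20% and 13.0 to 17.2% without a replicate. Of 154 alternatives for the relative loss over all CpGs and by class and context, 51 moved it by 1 SD or more, 10 of them among 22 at a mock mean of at least 20%, and 1 reversed it. In the methylated island it was -0.123 to 2.05% without a replicate.

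The replicate numbers share only a number: deviations of same-numbered Cre and mock samples correlated with r = 0.0829, 0.188 and 0.0575, and mock replicate 3 correlated better with Cre replicate 1 (0.0748). With the replicate number as a block, 30 CpGs were lower, of which 27 were among the 70, and 0 higher. In the other block fits 0 CpGs differed between TTKO and wild-type cells or between mock and day 0, and over amplicons 3 differed from day 4, 0 from day 10 and 0 between mock and day 0. Over amplicons 27 were lower after Cre.

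Without a replicate, 1 to 77 CpGs were lower and 0 to 1 higher, and 15 to 29 amplicons were lower and 0 to 1 higher. The effect at CpGs differed from day 4 at 0 to 1, from wild-type cells at 0 to 3 and between mock and day 0 at 0 to 9, and at amplicons from day 10 at 0 to 5, from wild-type cells at 2 to 7 and between mock and day 0 at 2 to 8. With limma on log2 odds 1 CpG was lower, 0 differed from day 4, 4 from day 10 and 7 between mock and day 0, and 2 amplicons differed from day 10 and 1 between mock and day 0. At least 1000 reads left 0 CpGs different from wild-type cells. A mean level of at least 5%, or a difference of at least 5 percentage points, left 0 CpGs higher. The cause was not tested.

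Log2 odds ratios that were not called changed sign without a replicate at the Calhm2 CpG at position 47210128 (-0.33 to 0.59), St7 (-0.25 to 0.82), Otor (-0.27 to 0.28), Zbtb20 (-0.46 to 0.029) and Gm10295 (-0.45 to 0.38). The 10 named CpGs that were called kept their call in 66 of 115 alternatives and lost it in 49, among them 34 of 60 without a replicate and 8 of 10 with limma. The 7 called amplicons among those named for an extreme loss, range or odds ratio kept their call in 75 of 80. The other called amplicons named above are not in this count. Of all 22 called amplicons, 15, 17 and 15 kept their call without Cre replicate 1, 2 or 3.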
